A study of Mus musculus with 24 samples.

Results

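The genes of the urea cycle and of amino acid breakdown were measured in liver RNA of 24 mice from 2 inbred strains, each fed 1 of 2 diets. The set has 37 protein-coding genes, chosen by gene symbol from 9 pathways. All 37 were found by identifier among the 53677 genes of the count matrix and passed the filter on low counts, which 14533 genes passed. RNA was sequenced from 129S1/SvImJ mice on a high-fat diet (6 mice), 129S1/SvImJ mice on chow (5 mice), C57BL/6J mice on a high-fat diet (7 mice) and C57BL/6J mice on chow (6 mice), with 1 library per mouse. The labels give no further genotype or treatment. Age, sex, diet composition and length of feeding are not in the sources used here.

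The liver is the main site where amino acid nitrogen is turned into urea. Carbamoyl phosphate made in mitochondria from ammonia enters a cycle of enzymes that ends with arginase, which releases urea. The carbon skeletons are taken apart in separate pathways, most of them mitochondrial, that feed acetyl-CoA, ketone bodies or intermediates of the citric acid cycle. In a lobule of the liver, the urea cycle enzymes are found mostly in the periportal hepatocytes, near the incoming blood.

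Libraries held between 6707013 and 13124881 counts. The markers of hepatocytes were abundant in every library, with a summed level of 53656 to 91581 CPM (counts per 1000000, scaled to library sizes adjusted by edgeR). Fat-cell genes stood out in C57BL/6J on high-fat diet, where the summed level of the 8 listed fat-cell genes was 91.5 to 369 CPM against 31.5 to 41.5 CPM in C57BL/6J on chow. Cidea made up part of that sum, at 0.119 to 39.9 CPM. Of the fat-cell genes that are scarce in hepatocytes, Adipoq, Lep and Plin1 were each above 1 CPM in C57BL/6J high-fat-diet replicate 5 alone, at 1.23, 3.28 and 1.56 CPM, and the next highest library was 129S1/SvImJ chow replicate 1, with 0.866 CPM of Adipoq. Without these 2 libraries, an alternative chosen after seeing the data, 11 of the 37 genes rose and 1 fell with diet in 129S1/SvImJ and 7 rose and 5 fell in C57BL/6J, where 7.36% and 11.9% of all genes tested were called. The level of Rn7sk, a small nuclear RNA kept by the depletion of ribosomal RNA, varied between libraries of a group, and it ran from 2526 to 7258.5 CPM in 129S1/SvImJ on chow. In tissue RNA, fewer hepatocytes and less RNA per hepatocyte cannot be told apart.

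The 37 genes together held 2.26 ± 0.0871% of the counts in 129S1/SvImJ on high-fat diet, 2.06 ± 0.148% in 129S1/SvImJ on chow, 1.67 ± 0.319% in C57BL/6J on high-fat diet and 1.94 ± 0.0704% in C57BL/6J on chow (SD, n = 6, 5, 7 and 6). Cps1 was the largest part of this sum, with means of 7967.5, 6954, 4431 and 6977 CPM in the same groups, so the sum does not describe the 37 genes evenly. Counts per 1000 exon bases and 1000000 counts (RPKM, mean of the 4 groups) scale the level of each gene by its length. The length takes in all annotated exons of a gene, so ranks between genes depend on the annotation too. On that scale Cps1, the first enzyme of the urea cycle, stood highest at 1185 RPKM and ranked 30th of the 14533 genes. Hpd at 708 RPKM, Cdo1 at 673 RPKM and Ass1 at 412 RPKM were also among the 100 highest, and 21 of the 37 were among the 1000 highest. The lowest were Bckdk at 4.78 RPKM and Sdsl at 4.63 RPKM.

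Most of the genes that changed with diet in 129S1/SvImJ rose, and in C57BL/6J about as many rose as fell. On high-fat diet 12 of the 37 rose and 2 fell in 129S1/SvImJ at an adjusted p under 0.05 (edgeR quasi-likelihood test, adjusted over all genes tested), where 10.4% of all genes were called, 5.41% higher and 5.01% lower. The median log2 fold change of the 37 was 0.10, and that of all genes tested was 0.00. Without 129S1/SvImJ chow replicate 1, 7 of the 37 and 6.33% of all genes were called. In C57BL/6J 4 rose and 5 fell, where 14.9% of all genes were called, 7.66% higher and 7.2% lower, and the median of the 37 was 0.06 against 0.01 over all genes. Bckdhb, Hibch and Uroc1 rose in both strains, Agxt and Csad fell in both, and no gene was called in opposite directions. The difference in counts between the strains is not a test of the diet effects against each other, which is given with the interaction below.

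**Figure D1:**
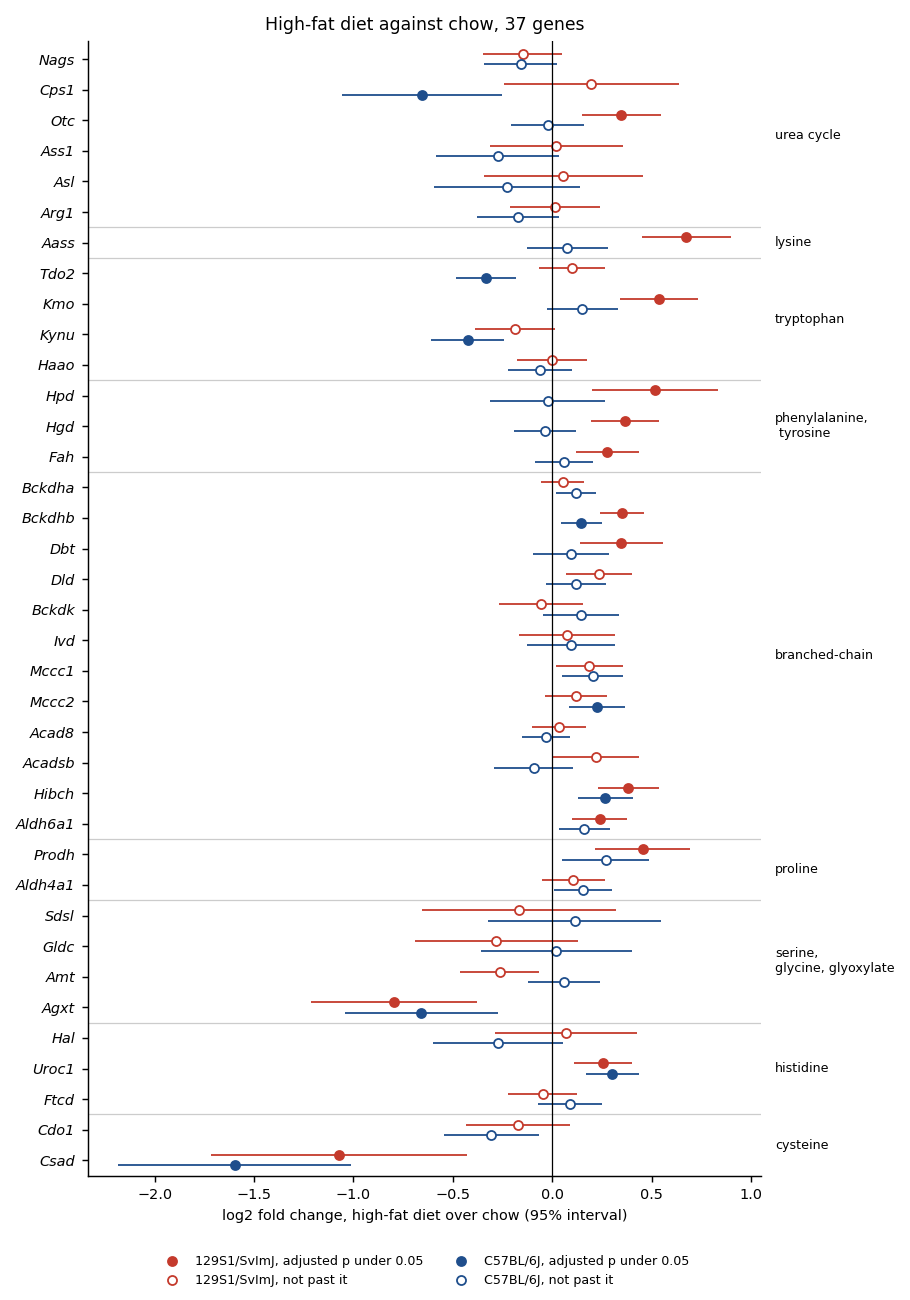
Log2 fold change of each of the 37 genes on high-fat diet over chow (x axis), by pathway (rows), in 129S1/SvImJ (red) and C57BL/6J (blue); lines are 95% intervals and filled points have an adjusted p under 0.05. The lysine gene and the 3 tyrosine genes are filled in red and open in blue, and Agxt and Csad lie to the left in both strains.

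Of the urea cycle genes, Otc rose on high-fat diet in 129S1/SvImJ and Cps1 fell on high-fat diet in C57BL/6J, while the other 4 were not called for diet in either strain. In C57BL/6J all 6 had negative log2 fold changes, from -0.65 to -0.02. Between strains on high-fat diet, Cps1, Otc and Arg1 were higher in 129S1/SvImJ, and on chow none of the 6 was called.

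Cps1 encodes carbamoyl phosphate synthetase, the entry enzyme of the cycle (mm10 chr1:67123026-67231259, plus strand). Its level was 7255 to 9010.0 CPM (median 7987) in 129S1/SvImJ on high-fat diet, and 5550.4, 5979.5, 7761, 7665 and 7812 CPM in the 5 libraries of 129S1/SvImJ on chow. In C57BL/6J it was 4459.9, 2988, 5441, 6203, 1758, 6573 and 3597 CPM in replicates 1 to 7 on high-fat diet, and 6408 to 8036 CPM (median 6881) on chow. The C57BL/6J livers on high-fat diet were spread over a wide range, with replicate 6 inside the range of chow and the other 6 below it. Every 129S1/SvImJ liver on high-fat diet lay above all 7. Cps1 fell by 36.5% on high-fat diet in C57BL/6J (log2 fold change -0.65 ± 0.20, adjusted p = 0.0252). Its log2 fold change in 129S1/SvImJ was 0.20 (95% interval -0.24 to 0.64, adjusted p = 0.623). On high-fat diet it was 79.8% higher in 129S1/SvImJ (log2 fold change 0.85 ± 0.20, adjusted p = 0.00142). On chow the 95% interval of the strain difference was -0.44 to 0.43 on the log2 scale. The fall in C57BL/6J was not called without C57BL/6J chow replicate 3 (adjusted p = 0.0526), C57BL/6J high-fat-diet replicate 2 (adjusted p = 0.0563) or C57BL/6J high-fat-diet replicate 7 (adjusted p = 0.0551), nor when the 2 C57BL/6J groups were fitted alone (adjusted p = 0.0891). Without replicate 5, the library with fat-cell transcripts, it was called with a log2 fold change of -0.51 (adjusted p = 0.0182). The fall of Cps1 in C57BL/6J passed in 9 of the 13 other alternatives. It was also lost with no filter on low counts (adjusted p = 0.0675) and at the low and high Rn7sk levels described below (adjusted p = 0.352 and 0.123).

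Otc, the mitochondrial enzyme that makes citrulline, was 497 to 602 CPM (median 556) in 129S1/SvImJ on high-fat diet, against 406, 421, 421, 459.7 and 466 CPM on chow, with no overlap (log2 fold change 0.35 ± 0.10, adjusted p = 0.0215). In C57BL/6J it averaged 428 ± 67.0 CPM on high-fat diet and 435 ± 46.7 CPM on chow (SD, n = 7 and 6), with a log2 fold change of -0.02 (95% interval -0.21 to 0.16). The rise in 129S1/SvImJ was not called without 129S1/SvImJ chow replicate 1 (adjusted p = 0.0659), 129S1/SvImJ chow replicate 2 (adjusted p = 0.0562) or 129S1/SvImJ high-fat-diet replicate 6 (adjusted p = 0.0503). Otc was 29.4% higher in 129S1/SvImJ than in C57BL/6J on high-fat diet (log2 fold change 0.37 ± 0.09, adjusted p = 0.00171). Replicate 3 of 129S1/SvImJ overlapped the upper end of C57BL/6J. Arg1, the arginase that splits off urea, averaged 919 ± 77.2 CPM in 129S1/SvImJ and 662 ± 84.3 CPM in C57BL/6J on high-fat diet (SD, n = 6 and 7; log2 fold change 0.47 ± 0.10, adjusted p = 0.000567). On chow Arg1 averaged 910.3 ± 171 CPM in 129S1/SvImJ and 746 ± 82.0 CPM in C57BL/6J (SD, n = 5 and 6), a difference of 0.29 on the log2 scale that was not called (adjusted p = 0.0545).

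Nags makes the activator of carbamoyl phosphate synthetase, and Ass1 and Asl make and split argininosuccinate. None of the 3 was called in any comparison, with log2 fold changes of -0.27 to 0.38 over the 4 comparisons of groups. Ass1 was 839.8, 631, 1007, 939, 512, 1323 and 651 CPM in replicates 1 to 7 of C57BL/6J on high-fat diet, against 926 to 1093 CPM (median 1034) in C57BL/6J on chow. Asl was 343, 256, 406, 474, 185, 486 and 323 CPM in the same 7 libraries, against 338 to 504 CPM (median 392) on chow. Replicate 5 was the lowest of the 7 for Cps1, Otc, Ass1, Asl and Nags and the second lowest for Arg1. Replicate 6 was the highest for Cps1, Ass1, Asl and Arg1. The coefficient of variation among the C57BL/6J livers on high-fat diet was 39.8% for Cps1, 32.8% for Ass1 and 31.4% for Asl, against 9.03%, 7.01% and 18.5% among those on chow.

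**Figure D2:**
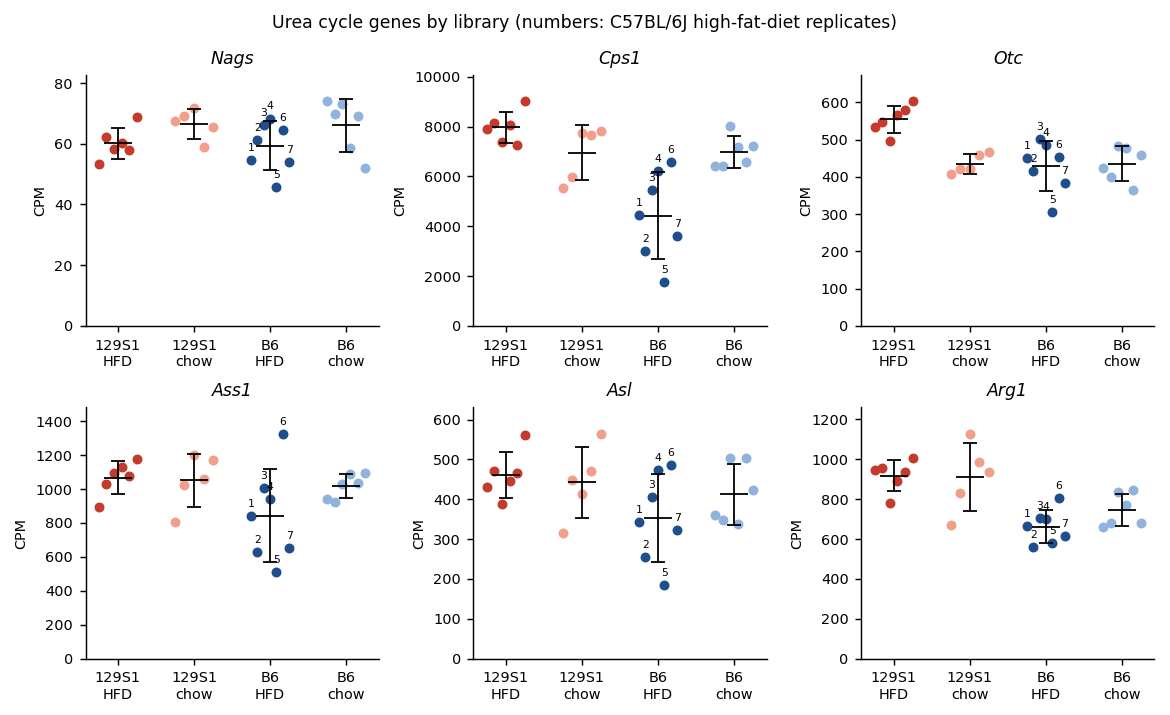
CPM of the 6 urea cycle genes in each library (points), with the mean and SD of each group (bars), for 129S1/SvImJ (129S1) and C57BL/6J (B6) on high-fat diet (HFD) and chow; the numbers are the replicates of C57BL/6J on high-fat diet. Cps1 ran from 1758 to 6573 CPM in the last-named group, and the low replicates 2, 5 and 7 for Cps1 were also the 3 lowest for Ass1, Asl and Arg1.

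The spread in C57BL/6J on high-fat diet was not limited to the urea cycle. The median coefficient of variation of the 37 genes was 13.6% in that group, 7.76% in 129S1/SvImJ on high-fat diet, 9.03% in C57BL/6J on chow and 11.0% in 129S1/SvImJ on chow. Over the 9399 tested genes with a mean level no lower than that of the lowest of the 37, the medians were 11.2%, 9.24%, 10.3% and 10.8% in the same 4 groups. The summed CPM of the 6 urea cycle genes was lowest among the C57BL/6J high-fat-diet libraries in replicates 5, 2 and 7, at 3387, 4913 and 5624, and highest in replicate 6, at 9703. The 7 periportal markers, none of which is among the 37, summed to 4603, 4689, 5526, 6299, 3355, 6694 and 4887 CPM in replicates 1 to 7. Their sum was lowest in replicate 5 and highest in replicate 6, as for the urea cycle, but replicate 1 came second lowest, with a urea cycle sum in the middle of the 7. The pericentral markers summed to 10345, 8624, 10652, 12347, 8409, 7141 and 10315 CPM in replicates 1 to 7, lowest in replicate 6. The hepatocyte markers summed to 62004, 62652, 66849, 71002, 59503, 78190 and 64512 CPM in replicates 1 to 7, the same order of libraries as for the periportal markers. With diet, 4 of the 7 hepatocyte markers tested fell in C57BL/6J (Alb, Apoa1, Ahsg and Fgb, list median -0.37), while none of the 7 periportal markers was called (list median -0.34). The 8 fat-cell genes summed to 152, 250 and 299 CPM in replicates 5, 2 and 7 and to 91.5 CPM in replicate 6, and replicate 1, with the highest sum at 369 CPM, was in the middle for Cps1. The part of the hepatocyte markers, the periportal markers and the fat-cell genes in the low values of the urea cycle genes was not tested.

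Lysine breakdown is represented by Aass, which joins lysine to 2-oxoglutarate and splits the product (mm10 chr6:23072173-23132986, minus strand), and it had the largest rise of the 37 with high-fat diet in 129S1/SvImJ. Aass was 541 to 719 CPM (median 579) in 129S1/SvImJ on high-fat diet, against 289, 349.5, 424, 423 and 396 CPM on chow. All 6 high-fat-diet livers lay above the 5 chow livers, a rise of 59.6% (log2 fold change 0.67 ± 0.11, adjusted p = 0.00019). C57BL/6J livers had 319 to 501 CPM (median 422) on high-fat diet and 359 to 442 CPM (median 394) on chow, with overlapping groups and a log2 fold change of 0.08 (95% interval -0.13 to 0.28). Aass was higher in 129S1/SvImJ than in C57BL/6J on high-fat diet, with no overlap (log2 fold change 0.51 ± 0.10, adjusted p = 0.000208). On chow the difference was -0.09 (95% interval -0.31 to 0.13).

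The tryptophan genes did not move as a block. Tdo2, which opens the tryptophan ring, and Kynu, which splits kynurenine and its 3-hydroxy form, fell on high-fat diet in C57BL/6J, and Kmo, which makes the 3-hydroxy form, rose on high-fat diet in 129S1/SvImJ. Haao, a later step towards quinolinate, was not called in any comparison. Tdo2 was 992 to 1207 CPM (median 1097) in C57BL/6J on high-fat diet, against 1291 to 1611 CPM (median 1386) on chow, with no overlap (log2 fold change -0.33 ± 0.07, adjusted p = 0.00318). In 129S1/SvImJ it was 1356 to 1449 CPM (median 1418) on high-fat diet, a narrow range, against 1212, 1100.2, 1433, 1557 and 1303 CPM on chow, with a log2 fold change of 0.10 (95% interval -0.07 to 0.26). The 129S1/SvImJ livers on high-fat diet all lay above the C57BL/6J livers on the same diet (log2 fold change 0.34 ± 0.07, adjusted p = 0.000738). Kynu averaged 176 ± 19.96 CPM in C57BL/6J on high-fat diet and 236 ± 41.9 CPM on chow (SD, n = 7 and 6), a fall of 25.6% (log2 fold change -0.43 ± 0.09, adjusted p = 0.00197), and the groups overlapped. In 129S1/SvImJ Kynu averaged 236 ± 13.3 CPM on high-fat diet and 269 ± 22.4 CPM on chow (SD, n = 6 and 5), with a log2 fold change of -0.19 that was not called (adjusted p = 0.239). On high-fat diet Kynu was higher in 129S1/SvImJ with no overlap (log2 fold change 0.43 ± 0.09, adjusted p = 0.000499). Within the 2 levels of Rn7sk described below, the log2 fold change of Kynu in C57BL/6J was -0.08 at low and -0.66 at high Rn7sk (adjusted p = 0.696 and 0.00266).

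Kmo was lower in 129S1/SvImJ, most clearly on chow. It was 306 to 357 CPM (median 339.9) in 129S1/SvImJ on high-fat diet, and 199, 231, 243, 227 and 247 CPM on chow. Levels in C57BL/6J were 419.9, 416, 427, 439, 291, 348 and 425 CPM on high-fat diet and 292 to 425 CPM (median 356) on chow. The chow livers of the strains did not overlap, with Kmo lower in 129S1/SvImJ (log2 fold change -0.63 ± 0.10, adjusted p = 1.52e-05). On high-fat diet the strains overlapped, with a smaller fitted difference (log2 fold change -0.25 ± 0.09, adjusted p = 0.0268) that was not called without 129S1/SvImJ high-fat-diet replicate 1 (adjusted p = 0.0585), 129S1/SvImJ high-fat-diet replicate 4 (adjusted p = 0.0619), C57BL/6J high-fat-diet replicate 3 (adjusted p = 0.0517), C57BL/6J high-fat-diet replicate 4 (adjusted p = 0.0537) or C57BL/6J high-fat-diet replicate 7 (adjusted p = 0.0513). The rise with diet in 129S1/SvImJ had no overlap (log2 fold change 0.54 ± 0.10, adjusted p = 0.000557), and in C57BL/6J the log2 fold change was 0.15 (adjusted p = 0.258).

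All 3 tyrosine genes of the set rose on high-fat diet in 129S1/SvImJ, with no overlap between the diets, and none was called for diet in C57BL/6J. Of 5 other phenylalanine and tyrosine genes tested, 1 rose and 1 fell on high-fat diet in 129S1/SvImJ. Hpd makes homogentisate, Hgd opens its ring and Fah splits the last intermediate into fumarate and acetoacetate. Hpd was 1775 to 2079 CPM (median 1940.2) in 129S1/SvImJ on high-fat diet, against 1272, 1464, 1284, 1354 and 1445 CPM on chow (log2 fold change 0.52 ± 0.15, adjusted p = 0.0313). In C57BL/6J Hpd was 1400.0, 1009, 1711, 1853, 703, 1597 and 1131 CPM in replicates 1 to 7 on high-fat diet, which reached both above and below the 1273 to 1472 CPM (median 1359) of chow, with a log2 fold change of -0.02 (95% interval -0.31 to 0.27). Replicates 5, 2 and 7 were the lowest here too. Hgd averaged 600.0 ± 29.7 CPM in 129S1/SvImJ on high-fat diet and 465 ± 38.7 CPM on chow (SD, n = 6 and 5; log2 fold change 0.37 ± 0.08, adjusted p = 0.00469). Its means were 503 ± 63.2 CPM on high-fat diet and 516 ± 40.4 CPM on chow in C57BL/6J (SD, n = 7 and 6). Fah averaged 604 ± 30.4 CPM in 129S1/SvImJ on high-fat diet and 498 ± 38.9 CPM on chow (SD, n = 6 and 5; log2 fold change 0.28 ± 0.08, adjusted p = 0.0194). Its means were 504 ± 57.3 CPM on high-fat diet and 483 ± 26.0 CPM on chow in C57BL/6J (SD, n = 7 and 6). On high-fat diet all 3 were higher in 129S1/SvImJ than in C57BL/6J, by 0.54, 0.25 and 0.26 on the log2 scale for Hpd, Hgd and Fah (adjusted p = 0.00359, 0.00998 and 0.00415). On chow none of the 3 was called. The rise of Hpd was not called without 129S1/SvImJ chow replicate 1 (adjusted p = 0.0831), 129S1/SvImJ chow replicate 3 (adjusted p = 0.0651), 129S1/SvImJ chow replicate 4 (adjusted p = 0.055), 129S1/SvImJ high-fat-diet replicate 4 (adjusted p = 0.0555), 129S1/SvImJ high-fat-diet replicate 5 (adjusted p = 0.0526) or 129S1/SvImJ high-fat-diet replicate 6 (adjusted p = 0.0597), and that of Fah not without 129S1/SvImJ chow replicate 1 (adjusted p = 0.0766) or 129S1/SvImJ chow replicate 2 (adjusted p = 0.0579). The rise of Hpd passed in 8 of the 13 other alternatives.

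**Figure D3:**
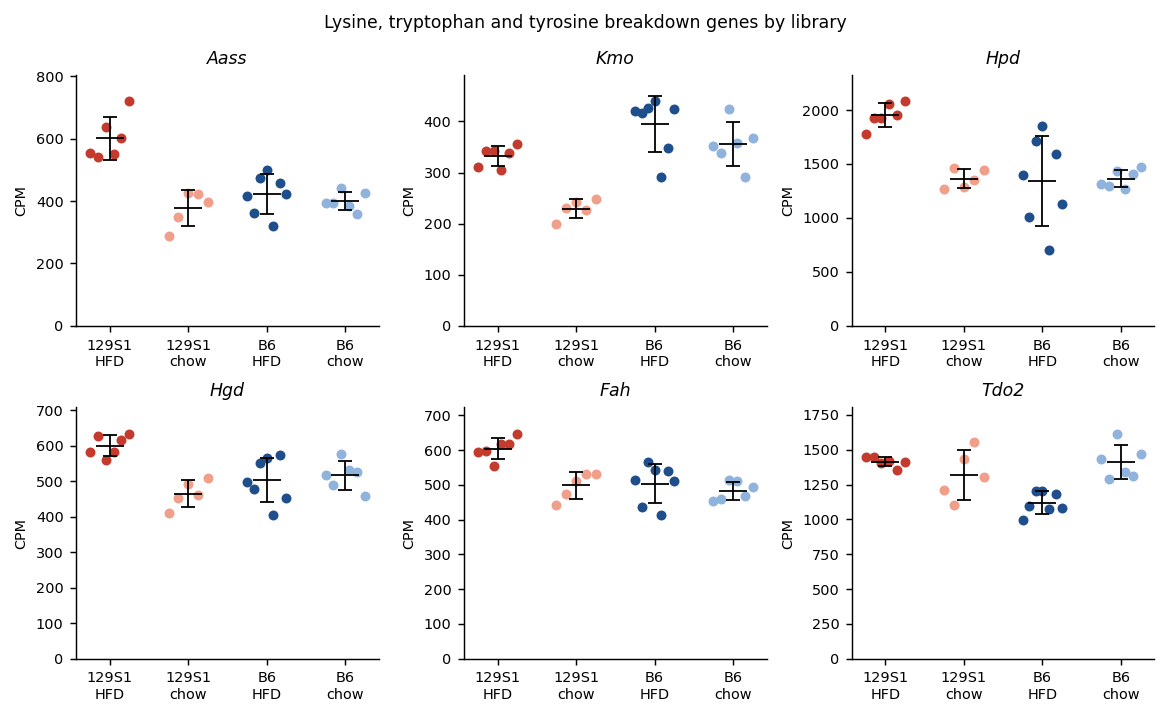
CPM of Aass, Kmo, Hpd, Hgd, Fah and Tdo2 in each library (points), with the mean and SD of each group (bars), for 129S1/SvImJ (129S1) and C57BL/6J (B6) on high-fat diet (HFD) and chow. For Aass, Kmo, Hpd, Hgd and Fah the 129S1/SvImJ points on high-fat diet all lie above those on chow, and for Tdo2 the C57BL/6J points on high-fat diet all lie below those on chow.

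Leucine, isoleucine and valine share their first steps, and the oxidative one is carried out by the branched-chain ketoacid dehydrogenase complex. Of the 12 genes of these pathways, 4 rose on high-fat diet in 129S1/SvImJ (Bckdhb, Dbt, Hibch and Aldh6a1) and 3 in C57BL/6J (Bckdhb, Mccc2 and Hibch), and none fell. Of all genes tested, 5.41% rose and 5.01% fell in 129S1/SvImJ, and 7.66% rose and 7.2% fell in C57BL/6J. The log2 fold changes were positive for 11 of the 12 in 129S1/SvImJ and for 10 of the 12 in C57BL/6J, with medians of 0.20 and 0.13. They were positive for 7144 and 7455 of all 14533 genes tested. Between strains Bckdha, Bckdhb, Dbt, Acadsb and Aldh6a1 were higher and Ivd was lower in 129S1/SvImJ on high-fat diet, and Bckdha, Bckdhb and Aldh6a1 were higher on chow. Of all genes tested, 17.9% were higher and 19.1% lower on high-fat diet, and 12.6% and 12.5% on chow. On chow 3 of the 12 were called, where 25% of all genes were, so that count does not set the 12 apart.

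Bckdhb, the beta subunit of the dehydrogenase component (mm10 chr9:83925145-84124240, plus strand), had the smallest adjusted p of the 37 in both strain comparisons. It was 135 to 150.4 CPM (median 143) in 129S1/SvImJ on high-fat diet and 105, 106, 114, 110.2 and 122 CPM in 129S1/SvImJ on chow. C57BL/6J livers had 78.4 to 90.2 CPM (median 84.9) on high-fat diet and 71.5 to 79.9 CPM (median 75.3) on chow. No 129S1/SvImJ liver on either diet was as low as any C57BL/6J liver. Bckdhb was 70.2% higher in 129S1/SvImJ on high-fat diet (log2 fold change 0.77 ± 0.05, adjusted p = 2.00e-12) and 47.8% higher on chow (log2 fold change 0.56 ± 0.05, adjusted p = 6.36e-09). With diet it rose in 129S1/SvImJ (log2 fold change 0.35 ± 0.05, adjusted p = 9.24e-05) and, less clearly, in C57BL/6J (log2 fold change 0.15 ± 0.05, adjusted p = 0.0438), where the call was lost in 12 of the 24 fits that left out 1 library, with adjusted p of up to 0.1 without C57BL/6J high-fat-diet replicate 7. The diet call for Bckdhb in C57BL/6J passed in 5 of the 13 other alternatives. Counts were made against mm10, the genome of C57BL/6J, and the effect of that on the 129S1/SvImJ counts was not tested.

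Bckdha, the alpha subunit, averaged 212 ± 10.6 CPM in 129S1/SvImJ and 186 ± 5.74 CPM in C57BL/6J on chow (SD, n = 5 and 6), with no overlap (log2 fold change 0.19 ± 0.05, adjusted p = 0.00913). On high-fat diet the means were 219.8 ± 12.8 CPM in 129S1/SvImJ and 202 ± 9.28 CPM in C57BL/6J (SD, n = 6 and 7; log2 fold change 0.12 ± 0.05, adjusted p = 0.0481), a call that was lost in 18 of the 24 fits without 1 library, with adjusted p of up to 0.13 without 129S1/SvImJ high-fat-diet replicate 6. It was also lost in 12 of the 13 other alternatives, among them DESeq2 size factors (adjusted p = 0.0629) and limma on the authors' variance-stabilized values (adjusted p = 0.0627). Dbt, the core subunit that carries the acyl group, was 123 to 158 CPM (median 135) in 129S1/SvImJ on high-fat diet, against 98.0, 96.2, 112, 113.3 and 117 CPM on chow, with no overlap (log2 fold change 0.35 ± 0.10, adjusted p = 0.0285). In C57BL/6J Dbt averaged 100.5 ± 19.2 CPM on high-fat diet and 94.1 ± 3.76 CPM on chow (SD, n = 7 and 6). On high-fat diet Dbt was higher in 129S1/SvImJ (log2 fold change, 129S1/SvImJ over C57BL/6J, 0.44, adjusted p = 0.000489). The diet call for Dbt was lost without 129S1/SvImJ chow replicate 1 (adjusted p = 0.0874), 129S1/SvImJ chow replicate 2 (adjusted p = 0.0904) or 129S1/SvImJ high-fat-diet replicate 6 (adjusted p = 0.0731), and with 1 mean for each number in the mouse identifiers (adjusted p = 0.0507). Dld, the third component, which other dehydrogenase complexes share, and Bckdk, the kinase that turns the complex off, were not called. Dld had a log2 fold change of 0.24 with diet in 129S1/SvImJ (adjusted p = 0.0619), and Bckdk one of -0.06 (95% interval -0.27 to 0.16).

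Hibch and Aldh6a1 act late in valine breakdown. Hibch was 86.9 to 104 CPM (median 91.7) in 129S1/SvImJ on high-fat diet against 64.8, 68.7, 68.8, 76.7 and 77.2 CPM on chow. The levels were 72.7 to 98.1 CPM (median 87.3) in C57BL/6J on high-fat diet against 65.9 to 81.6 CPM (median 69.1) on chow. It rose in both strains (log2 fold change 0.38 ± 0.07, adjusted p = 0.00136 in 129S1/SvImJ, and log2 fold change 0.27 ± 0.07, adjusted p = 0.00848 in C57BL/6J). The diets did not overlap in 129S1/SvImJ, and Hibch was not called between strains on either diet. Aldh6a1 averaged 762 ± 44.2 CPM in 129S1/SvImJ on high-fat diet and 645 ± 32.0 CPM on chow (SD, n = 6 and 5; log2 fold change 0.24 ± 0.07, adjusted p = 0.0222). Its means in C57BL/6J were 619 ± 56.3 CPM on high-fat diet and 553 ± 26.6 CPM on chow (SD, n = 7 and 6; log2 fold change 0.16 ± 0.06, adjusted p = 0.0764). It was higher in 129S1/SvImJ on high-fat diet and on chow, by 0.30 and 0.22 on the log2 scale (adjusted p = 0.00041 and 0.0159). The Aldh6a1 diet call in 129S1/SvImJ was lost without 129S1/SvImJ chow replicate 1 (adjusted p = 0.0715), 129S1/SvImJ chow replicate 2 (adjusted p = 0.063) or 129S1/SvImJ high-fat-diet replicate 6 (adjusted p = 0.0526), and its strain call on chow without 129S1/SvImJ chow replicate 4 (adjusted p = 0.0517).

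In leucine breakdown, Ivd (isovaleryl-CoA dehydrogenase) was the one branched-chain gene called lower in 129S1/SvImJ. Ivd averaged 164 ± 12.7 CPM in 129S1/SvImJ and 202 ± 45.7 CPM in C57BL/6J on high-fat diet (SD, n = 6 and 7; log2 fold change -0.30 ± 0.11, adjusted p = 0.0301), a call lost without 129S1/SvImJ high-fat-diet replicate 1 (adjusted p = 0.0579), 129S1/SvImJ high-fat-diet replicate 4 (adjusted p = 0.0557), 129S1/SvImJ high-fat-diet replicate 5 (adjusted p = 0.0595), C57BL/6J high-fat-diet replicate 3 (adjusted p = 0.0608), C57BL/6J high-fat-diet replicate 4 (adjusted p = 0.0642) or C57BL/6J high-fat-diet replicate 6 (adjusted p = 0.0835), and with 1 mean for each identifier number (adjusted p = 0.0531). The Ivd call passed in 8 of the 13 other alternatives. On chow Ivd averaged 155 ± 17.3 CPM in 129S1/SvImJ and 189 ± 9.39 CPM in C57BL/6J (SD, n = 5 and 6), where the strains did not overlap but the difference was not called (log2 fold change -0.28 ± 0.12, adjusted p = 0.0825). Mccc2, a subunit of methylcrotonyl-CoA carboxylase, averaged 72.0 ± 5.12 CPM in C57BL/6J on high-fat diet and 61.6 ± 2.58 CPM on chow (SD, n = 7 and 6; log2 fold change 0.22 ± 0.07, adjusted p = 0.0278). The means were 68.4 ± 6.68 CPM on high-fat diet and 63.0 ± 7.49 CPM on chow in 129S1/SvImJ (SD, n = 6 and 5). The call in C57BL/6J was lost without C57BL/6J chow replicate 1 (adjusted p = 0.0516), C57BL/6J chow replicate 2 (adjusted p = 0.0581), C57BL/6J chow replicate 6 (adjusted p = 0.058), C57BL/6J high-fat-diet replicate 3 (adjusted p = 0.052) or C57BL/6J high-fat-diet replicate 7 (adjusted p = 0.0631). The Mccc2 call passed in 9 of the 13 other alternatives. Its partner subunit Mccc1 had log2 fold changes of 0.19 in 129S1/SvImJ and 0.20 in C57BL/6J (adjusted p = 0.157 and 0.067). Acadsb, which acts on the isoleucine intermediate, was 224 to 270.0 CPM (median 235) in 129S1/SvImJ on high-fat diet, above all the C57BL/6J livers on that diet at 117 to 209 CPM (median 182) (log2 fold change 0.45 ± 0.10, adjusted p = 0.000662). On chow Acadsb averaged 205 ± 14.7 CPM in 129S1/SvImJ and 187 ± 17.5 CPM in C57BL/6J (SD, n = 5 and 6), a log2 difference of 0.13 that was not called. Acad8, its counterpart in valine breakdown, had log2 fold changes between -0.09 and 0.04 over the 4 comparisons of groups.

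Proline breakdown starts with Prodh, which was higher in 129S1/SvImJ on both diets and rose with high-fat diet in that strain. Prodh was 246 to 334 CPM (median 289.7) in 129S1/SvImJ on high-fat diet and 151, 215, 225, 201 and 253 CPM in 129S1/SvImJ on chow. It was 133 to 219.8 CPM (median 192) in C57BL/6J on high-fat diet and 138 to 167 CPM (median 148) in C57BL/6J on chow. The strains did not overlap on high-fat diet (log2 fold change 0.66 ± 0.11, adjusted p = 2.20e-05). On chow 1 of the 129S1/SvImJ livers fell within the C57BL/6J range (log2 fold change 0.47 ± 0.12, adjusted p = 0.00337). The rise with diet was 37.2% in 129S1/SvImJ (log2 fold change 0.46 ± 0.12, adjusted p = 0.0117). In C57BL/6J the log2 fold change was 0.27 (adjusted p = 0.0877). Aldh4a1, the next enzyme, was not called, with log2 fold changes of 0.10 to 0.15 over the 4 comparisons of groups.

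Of the histidine genes, Uroc1, the second enzyme of the pathway, rose by about the same amount in both strains. Uroc1 was 531 to 666 CPM (median 628) in 129S1/SvImJ on high-fat diet against 496, 542, 503, 476 and 533 CPM on chow (log2 fold change 0.26 ± 0.07, adjusted p = 0.02). In C57BL/6J it was 559 to 699.8 CPM (median 600.3) on high-fat diet against 463 to 555 CPM (median 495) on chow, without overlap (log2 fold change 0.30 ± 0.07, adjusted p = 0.00245). The interaction for Uroc1 was -0.05 (95% interval -0.24 to 0.15), and the call in 129S1/SvImJ was lost without 129S1/SvImJ chow replicate 1 (adjusted p = 0.055), 129S1/SvImJ chow replicate 4 (adjusted p = 0.0526) or 129S1/SvImJ high-fat-diet replicate 4 (adjusted p = 0.0512). Ftcd, the last enzyme, which passes carbon to folate, was not called for diet in either strain and was higher in 129S1/SvImJ on both diets. Its levels were 532 ± 17.7 CPM in 129S1/SvImJ and 452 ± 71.9 CPM in C57BL/6J on high-fat diet (SD, n = 6 and 7; log2 fold change 0.23 ± 0.08, adjusted p = 0.0202). They were 549.7 ± 37.5 CPM in 129S1/SvImJ and 425 ± 24.1 CPM in C57BL/6J on chow (SD, n = 5 and 6; log2 fold change 0.37 ± 0.08, adjusted p = 0.00173). The call on high-fat diet was lost without C57BL/6J high-fat-diet replicate 2 (adjusted p = 0.0508) or C57BL/6J high-fat-diet replicate 5 (adjusted p = 0.0519). The Ftcd call on high-fat diet passed in 8 of the 13 other alternatives. Hal, the first enzyme, was not called, and it ran from 185 CPM in replicate 5 to 526 CPM in replicate 6 of C57BL/6J on high-fat diet.

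Agxt and Csad were the 2 genes that fell with high-fat diet in both strains. Agxt transfers the amino group of alanine to glyoxylate, which keeps glyoxylate from becoming oxalate (mm10 chr1:93135240-93145421, plus strand). It was 137 to 167 CPM (median 148) in 129S1/SvImJ on high-fat diet, against 281, 228, 306, 259.7 and 222 CPM on chow. No high-fat-diet liver of 129S1/SvImJ reached the chow range, a fall of 42.4% (log2 fold change -0.79 ± 0.20, adjusted p = 0.0133). In C57BL/6J Agxt was 117, 73.5, 137, 126, 62.5, 207 and 102 CPM in replicates 1 to 7 on high-fat diet, against 162 to 233 CPM (median 171) on chow. Replicate 6 lay inside the chow range and the other 6 below it (log2 fold change -0.66 ± 0.19, adjusted p = 0.0195). When the 2 C57BL/6J groups were fitted alone the adjusted p was 0.0853. The fall in 129S1/SvImJ was not called among the libraries below the widest gap in Rn7sk levels (adjusted p = 0.0746), which left 3 of that strain on chow. In each strain the fall of Agxt passed in 10 of the 13 other alternatives.

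Csad decarboxylates cysteine sulfinate on the way to taurine (mm10 chr15:102176999-102204724, minus strand), and it had the largest change with diet of the 37 in either strain. Csad was 75.3, 65.4, 63.4, 36.5, 38.1 and 73.2 CPM in replicates 1 to 6 of 129S1/SvImJ on high-fat diet, against 134, 79.2, 85.7, 154 and 162 CPM on chow. C57BL/6J livers had 72.9, 69.5, 55.7, 78.1, 131, 128 and 117 CPM in replicates 1 to 7 on high-fat diet, against 231, 310.4, 164, 332, 489 and 162 CPM in replicates 1 to 6 on chow. The diets did not overlap in either strain. Csad had a fall of 52.4% in 129S1/SvImJ (log2 fold change -1.07 ± 0.31, adjusted p = 0.0298) and of 66.9% in C57BL/6J (log2 fold change -1.60 ± 0.28, adjusted p = 0.000657). The spread within groups was wide, with coefficients of variation of 29.2%, 31.3%, 33.4% and 44.1% in 129S1/SvImJ on high-fat diet, 129S1/SvImJ on chow, C57BL/6J on high-fat diet and C57BL/6J on chow. In C57BL/6J on high-fat diet and 129S1/SvImJ on chow, Csad separated by the number in the mouse identifiers, whose meaning the labels do not give. In C57BL/6J on high-fat diet the 4 mice with number 1 (replicates 1 to 4) were all below the 3 with number 16 (replicates 5 to 7). In 129S1/SvImJ on chow the 3 mice of one number (replicates 1 to 3) were below the 2 of the other. The 2 numbers did not overlap for 3 of the 37 genes in C57BL/6J on high-fat diet (8.11%, against 6.99% of all genes tested) and for 12 in 129S1/SvImJ on chow (32.4%, against 24.9%). For Csad the 2 numbers overlapped in 129S1/SvImJ on high-fat diet and in C57BL/6J on chow. In those groups 5 and 6 of the 37 did not overlap (13.5% and 16.2%, against 10.2% and 12.1%). The fall in 129S1/SvImJ was not called without 129S1/SvImJ chow replicate 1 (adjusted p = 0.0702), 129S1/SvImJ chow replicate 4 (adjusted p = 0.0669), 129S1/SvImJ chow replicate 5 (adjusted p = 0.0703), 129S1/SvImJ high-fat-diet replicate 4 (adjusted p = 0.0653) or 129S1/SvImJ high-fat-diet replicate 5 (adjusted p = 0.0692). The fall in 129S1/SvImJ passed in 7 of the 13 other alternatives. On chow Csad was 56.3% lower in 129S1/SvImJ (log2 fold change -1.19 ± 0.31, adjusted p = 0.00694). On high-fat diet the difference was -0.67 (adjusted p = 0.0728).

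Cdo1, which makes the cysteine sulfinate that Csad uses, stood at 673 RPKM against 36.3 RPKM for Csad. Cdo1 averaged 1177 ± 223 CPM in 129S1/SvImJ on high-fat diet, 1324 ± 155 CPM in 129S1/SvImJ on chow, 862 ± 160.3 CPM in C57BL/6J on high-fat diet and 1066 ± 93.6 CPM in C57BL/6J on chow (SD, n = 6, 5, 7 and 6). Neither diet effect was called (-0.17 and -0.31 on the log2 scale in 129S1/SvImJ and C57BL/6J, adjusted p = 0.438 and 0.0757), and it was higher in 129S1/SvImJ on high-fat diet (log2 fold change 0.45 ± 0.12, adjusted p = 0.00342). Of the glycine cleavage genes, Gldc and Amt were both higher in 129S1/SvImJ on chow. Gldc averaged 199.99 ± 43.6 CPM in 129S1/SvImJ and 127 ± 38.1 CPM in C57BL/6J on chow (log2 fold change 0.66 ± 0.20, adjusted p = 0.0168). Its means were 165 ± 30.0 CPM in 129S1/SvImJ and 129 ± 28.6 CPM in C57BL/6J on high-fat diet, where it was not called. Amt averaged 68.7 ± 8.85 CPM in 129S1/SvImJ and 52.8 ± 5.76 CPM in C57BL/6J on chow (log2 fold change 0.38 ± 0.10, adjusted p = 0.00452). Its means were 57.2 ± 4.91 CPM in 129S1/SvImJ and 55.0 ± 7.41 CPM in C57BL/6J on high-fat diet (all SD, n = 5 and 6 on chow, 6 and 7 on high-fat diet). The Gldc call was lost without 129S1/SvImJ chow replicate 1 (adjusted p = 0.0558). It was also lost with only the groups compared (adjusted p = 0.0512) and without both libraries with the most Adipoq (adjusted p = 0.0616). The call passed in 9 of the 13 other alternatives. Sdsl, a serine dehydratase-like gene, was the least abundant of the 37 per exon length and was not called, with 4.47 to 7.30 CPM in 6 of the C57BL/6J livers on high-fat diet and 16.4 CPM in replicate 6.

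**Figure D4:**
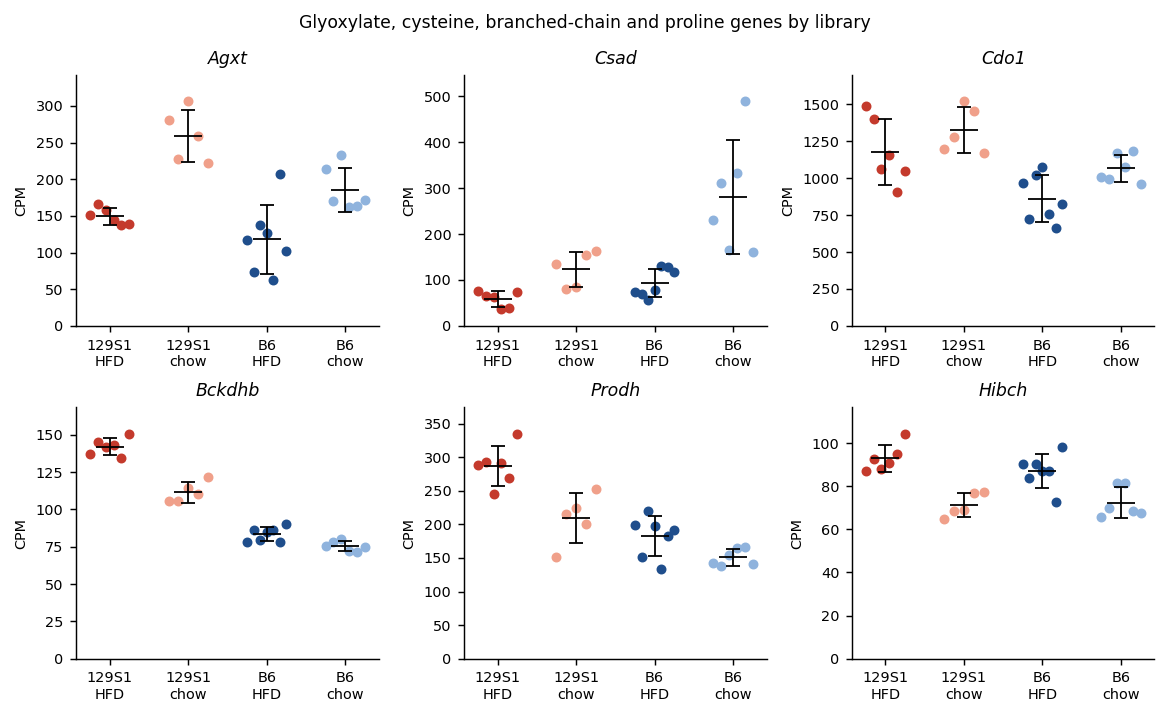
CPM of Agxt, Csad, Cdo1, Bckdhb, Prodh and Hibch in each library (points), with the mean and SD of each group (bars), for 129S1/SvImJ (129S1) and C57BL/6J (B6) on high-fat diet (HFD) and chow. Csad is lower on high-fat diet than on chow in both strains without overlap, and all Bckdhb points of 129S1/SvImJ lie above all those of C57BL/6J.

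The promoter windows of 4 genes that moved with diet are shown to set 2 that rose in 129S1/SvImJ, Aass and Bckdhb, beside the 2 that fell in both strains, Agxt and Csad. Each runs from 250 bases before to 50 bases after a RefSeq transcription start (GRCm38.p6), 5′ to 3′ on the strand of the gene, with matches to 5 motifs in capitals. The motifs were searched on both strands: the TATA motif as TATAAA, the CAAT-type motif as CCAAT, the GC-rich motif of Sp1 as GGGCGG, the half-site of the cAMP response element as TGACG and the half-site of nuclear receptors as AGGTCA.
Aass (chr6:23132937-23133236, minus strand): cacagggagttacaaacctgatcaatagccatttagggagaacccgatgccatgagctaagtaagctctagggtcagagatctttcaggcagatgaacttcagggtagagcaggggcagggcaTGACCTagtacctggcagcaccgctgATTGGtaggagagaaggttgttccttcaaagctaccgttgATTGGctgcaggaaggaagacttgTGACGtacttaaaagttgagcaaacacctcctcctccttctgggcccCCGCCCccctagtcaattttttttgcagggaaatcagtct
Bckdhb (chr9:83924887-83925186, plus strand): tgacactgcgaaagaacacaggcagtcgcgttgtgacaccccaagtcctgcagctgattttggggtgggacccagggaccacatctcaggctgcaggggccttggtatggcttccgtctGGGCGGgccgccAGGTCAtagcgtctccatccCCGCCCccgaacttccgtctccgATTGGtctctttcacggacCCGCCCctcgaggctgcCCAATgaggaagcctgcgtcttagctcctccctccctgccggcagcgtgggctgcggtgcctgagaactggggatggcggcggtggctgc
Agxt (chr1:93134990-93135289, plus strand): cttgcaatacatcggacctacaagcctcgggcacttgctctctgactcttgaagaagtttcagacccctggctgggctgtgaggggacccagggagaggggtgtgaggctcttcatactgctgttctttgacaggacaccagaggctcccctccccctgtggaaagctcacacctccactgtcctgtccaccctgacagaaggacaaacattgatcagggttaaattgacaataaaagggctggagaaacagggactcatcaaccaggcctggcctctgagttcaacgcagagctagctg
Csad (chr15:102205003-102205302, minus strand): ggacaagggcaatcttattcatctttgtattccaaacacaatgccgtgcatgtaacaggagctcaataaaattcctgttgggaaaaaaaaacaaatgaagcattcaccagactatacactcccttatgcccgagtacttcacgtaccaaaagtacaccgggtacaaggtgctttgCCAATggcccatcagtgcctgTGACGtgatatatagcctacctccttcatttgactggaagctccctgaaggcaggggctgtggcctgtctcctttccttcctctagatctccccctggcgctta
The Aass window holds 2 matches to CCAAT, 1 to GGGCGG, 1 to TGACG and 1 to AGGTCA. The Bckdhb window holds 3 matches to GGGCGG, 2 to CCAAT and 1 to AGGTCA. The Csad window holds 1 match to CCAAT and 1 to TGACG, and its RefSeq start lies 328 bases upstream of the gene start in GENCODE M21. The Agxt window holds none of the 5 letter strings. Of all 32851 windows of this length, 13.6% hold TATAAA, 37.4% CCAAT, 35.7% GGGCGG, 20.8% TGACG and 16.3% AGGTCA. A window was found for 30 of the 37 genes, all but Kynu, Sdsl, Cps1, Dbt, Arg1, Asl and Cdo1. Of the 30, 5, 17, 12, 6 and 8 hold these strings, in the same order. Of the 12 genes that rose in 129S1/SvImJ, 11 have a window, and 1, 5, 5, 1 and 4 of these hold the strings in that order.

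Genes of the set that were called between the strains were mostly higher in 129S1/SvImJ. On chow the share of the 37 that was called was close to that of all genes tested. On high-fat diet 17 of the 37 were higher and 2 lower in 129S1/SvImJ, where 37% of all genes were called, 17.9% higher and 19.1% lower, and the median log2 difference of the 37 was 0.25 against 0.00 over all genes. On chow 7 were higher and 2 lower, where 25% of all genes were called, 12.6% higher and 12.5% lower, with medians of 0.04 for the 37 and 0.01 for all genes. Bckdhb, Aldh6a1, Prodh and Ftcd were higher on both diets and Kmo was lower on both, and Bckdha was higher on both with a call on high-fat diet that 12 of 13 other alternatives lost. On chow the calls of Bckdha and Aldh6a1 passed in 9 and 10 of the 13, and on high-fat diet those of Ftcd and Kmo in 8 and 10. Bckdhb passed in all 13 on both diets. The groups did not overlap for 7 of the 37, all higher in 129S1/SvImJ, on high-fat diet (15.1% of all genes tested, 7.88% higher and 7.18% lower). On chow they did not overlap for 4 higher and 2 lower (15.1% of all genes tested, 7.49% higher and 7.65% lower). For diet, the groups did not overlap for 9 higher and 2 lower genes in 129S1/SvImJ (7.73% of all genes, 3.96% higher and 3.78% lower) and for 1 higher and 2 lower in C57BL/6J (3.89%, 1.78% higher and 2.11% lower). Among markers of other cells, 5 of the 8 Kupffer cell genes tested were lower in 129S1/SvImJ on high-fat diet and 8 of 8 on chow. All 3 lymphocyte genes tested were lower in 129S1/SvImJ on both diets. Of the 6 endothelial genes tested, 3 lower and 1 higher in 129S1/SvImJ were called on high-fat diet, and 4 lower and 1 higher on chow. Of the 5 cholangiocyte genes tested, 3 lower and 0 higher in 129S1/SvImJ were called on high-fat diet, and 1 lower and 0 higher on chow. Of the 6 stellate cell genes tested, 1 lower and 2 higher in 129S1/SvImJ were called on high-fat diet, and 2 lower and 1 higher on chow. Of the 10 pericentral hepatocyte genes tested, 5 lower and 2 higher in 129S1/SvImJ were called on high-fat diet, and 3 lower and 1 higher on chow. Of the 7 periportal hepatocyte genes tested, 1 lower and 1 higher in 129S1/SvImJ were called on high-fat diet, and 0 lower and 0 higher on chow. Of the 8 listed fat-cell genes, Adipoq, Lep, Plin1 and Retn did not pass the filter on low counts. The 4 tested, Cidea, Lipe, Cfd and Fabp4, were lower in 129S1/SvImJ on high-fat diet, and Lipe also on chow. Cidea was at most 0.169 CPM in every group but C57BL/6J on high-fat diet. It passed the filter only through that group, so its direction on that diet was set by the filter. Of the 7 hepatocyte markers, 4 were higher in 129S1/SvImJ on high-fat diet and 3 on chow. Cela1, the only 1 of the 7 listed pancreatic acinar cell genes that passed the filter, was higher in 129S1/SvImJ on both diets. Of the other listed acinar genes, Prss2 and Cpb1 had no counts in any library. The part of these genes in the strain differences of the 37 was not tested. Diet and strain comparisons share groups, so their counts are not independent of each other.

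**Figure D5:**
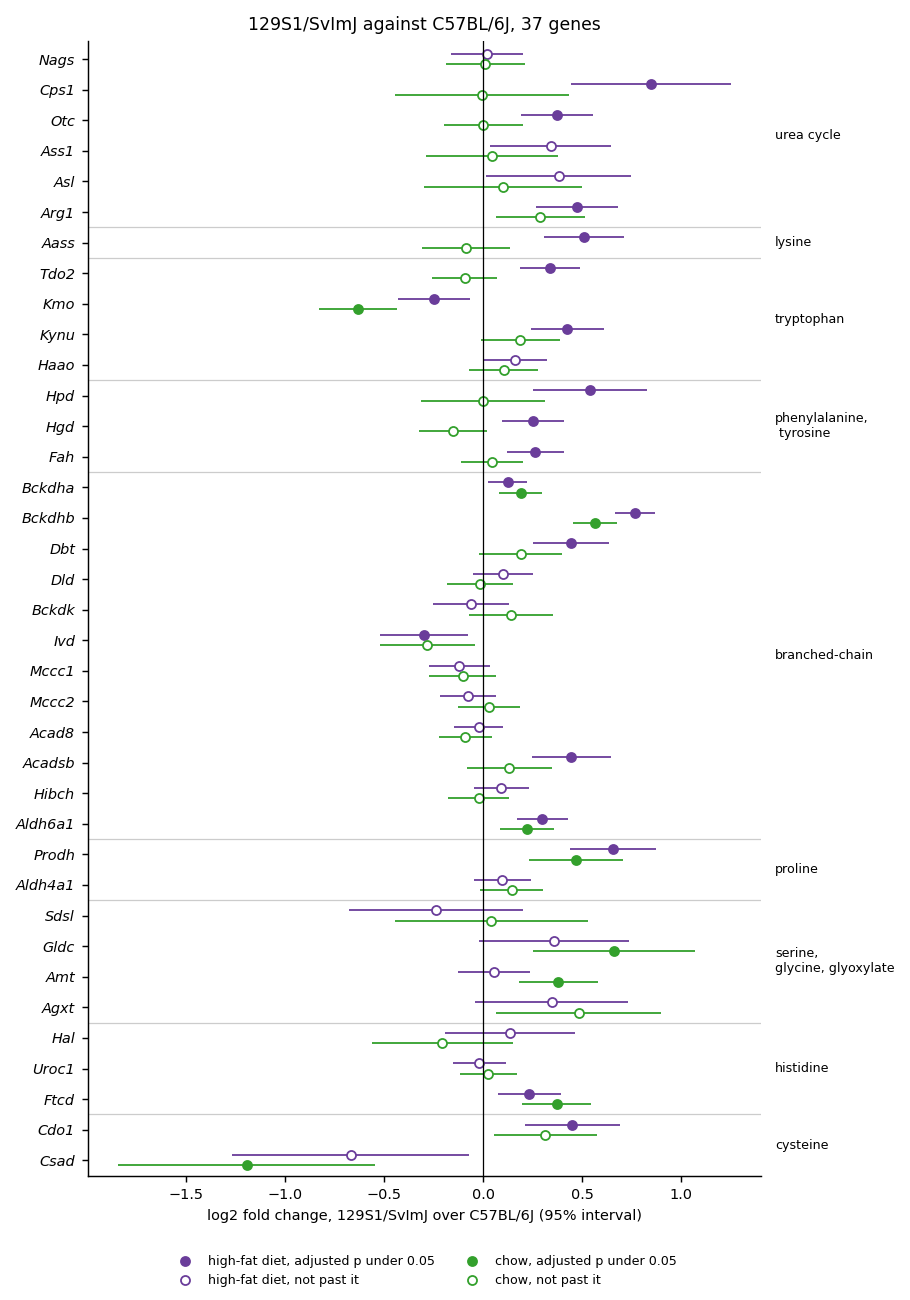
Log2 fold change of each of the 37 genes, 129S1/SvImJ over C57BL/6J (x axis), by pathway (rows), on high-fat diet (purple) and chow (green); lines are 95% intervals and filled points have an adjusted p under 0.05. On high-fat diet 17 filled points lie to the right of 0 and 2 to the left, and on chow 7 and 2.

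No gene of the set passed the test of the interaction, which asks whether the diet effect differs between strains (adjusted p under 0.05 in 0.296% of all genes, 43 of 14533). At an unadjusted p under 0.05 there were 11 of the 37, against 14.3% of all genes, and the median interaction of the 37 was 0.14. The smallest p-values were those of Aass (0.60, 95% interval 0.30 to 0.90, adjusted p = 0.0642), Tdo2 (0.43, 0.21 to 0.65, adjusted p = 0.072) and Hgd (0.41, 0.17 to 0.64, adjusted p = 0.0895), each positive, that is, a more positive diet effect in 129S1/SvImJ. The DESeq2 Wald test called these 3 (adjusted p = 0.0121, 0.00922 and 0.0235). For Cps1 the interaction was 0.85 (95% interval 0.25 to 1.45, adjusted p = 0.168). The 129S1/SvImJ rises of Kmo, Hpd and Otc were accompanied by interactions of 0.38, 0.54 and 0.37 (adjusted p = 0.161, 0.226 and 0.183), so a difference between the strains in these diet effects was not shown.

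The other genes of the same pathways, 86 listed and 81 tested, add context for the 37. With high-fat diet 16 of the 81 rose and 7 fell in 129S1/SvImJ, and 18 rose and 9 fell in C57BL/6J. Of all genes tested, 10.4% were called in 129S1/SvImJ (5.41% higher and 5.01% lower) and 14.9% in C57BL/6J (7.66% higher and 7.2% lower). Ppm1k, the phosphatase that turns the branched-chain dehydrogenase complex on, rose in both strains, to a mean of 373 CPM in 129S1/SvImJ on high-fat diet against 212 CPM on chow (0.82, adjusted p = 1.18e-06 on the log2 scale). It rose to 274 CPM in C57BL/6J on high-fat diet against 191 CPM on chow (0.52, adjusted p = 0.000164). Hnmt, which methylates histamine, also rose in both strains (0.97 and 0.72), as did Suox and Pcca in 129S1/SvImJ (0.44 and 0.36) and Mpst and Hsd17b10 in C57BL/6J (0.40 and 0.46). Gcat, of threonine breakdown, and Mmab, of cobalamin handling, fell in both strains (-0.90 and -1.04 in 129S1/SvImJ, -0.70 and -0.63 in C57BL/6J). Slc25a44, a mitochondrial carrier of branched-chain amino acids, and the transcription factor gene Cebpa fell in 129S1/SvImJ (-0.47 and -0.50), and Slc25a15, the ornithine carrier of the urea cycle, and Cth, which makes cysteine, fell in C57BL/6J (-0.40 and -0.81).

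Between strains, 30 of the 81 were higher and 11 lower in 129S1/SvImJ on high-fat diet, and 20 were higher and 4 lower on chow. Of all genes tested, 37% were called on high-fat diet (17.9% higher and 19.1% lower) and 25% on chow (12.6% higher and 12.5% lower). Dhtkd1, which acts further down the lysine pathway than Aass, had the smallest p in both comparisons, with a mean of 497 CPM in 129S1/SvImJ and 137 CPM in C57BL/6J on high-fat diet (1.85, adjusted p = 1.51e-15 on the log2 scale). The means were 375 CPM in 129S1/SvImJ and 133 CPM in C57BL/6J on chow (1.499, adjusted p = 9.82e-13). Hoga1 was also higher on both diets (0.74 and 0.68), as were Mut and Pipox on high-fat diet (0.49 and 0.67) and Pccb and Agxt2 on chow (0.35 and 0.36). Oat, the ornithine aminotransferase, which is also a marker of pericentral hepatocytes, was lower in 129S1/SvImJ on both diets (-0.56 on high-fat diet and -0.79 on chow). Mmab, Gpt2 and Qdpr were lower on high-fat diet (-0.55, -0.47 and -0.30), and Kyat3, Hsd17b10 and Hnmt on chow (-1.01, -0.37 and -0.54).

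The libraries were also split by the level of Rn7sk, and the comparisons repeated within each level, which left 2, 3, 2 and 3 libraries of 129S1/SvImJ on high-fat diet, 129S1/SvImJ on chow, C57BL/6J on high-fat diet and C57BL/6J on chow at the low level and 4, 2, 5 and 3 at the high level. All 51 calls of the 4 comparisons of groups kept their sign at both levels, and 10 and 19 of them passed the threshold at low and high Rn7sk. With these smaller groups, the edgeR diet comparison in 129S1/SvImJ called 3 of the 37 at low and 0 at high Rn7sk, where 2.08% and 1.87% of all genes tested were called. That in C57BL/6J called 1 and 3, with 2.13% and 5.19% of all genes. The strain comparison on high-fat diet called 1 and 14 (10.6% and 25.9% of all genes), and that on chow 6 and 3 (13.7% and 8.86%). At low Rn7sk, log2 fold changes more than 1.5 times smaller than over all libraries were seen, beside Kynu with diet, for Uroc1 with diet in 129S1/SvImJ at 0.15 (adjusted p = 0.507) and Tdo2 with diet in C57BL/6J at -0.21 (adjusted p = 0.306). Between strains on high-fat diet they were seen for Otc at 0.20 (adjusted p = 0.317), Kynu at 0.28 (adjusted p = 0.09) and Aldh6a1 at 0.19 (adjusted p = 0.301).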

How the data were processed

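Total RNA from liver was depleted of ribosomal RNA and made into stranded libraries, per the labels' protocols. Tools listed by the submitters' processing notes are STAR 2.5.4b, Trimmomatic 0.36, DESeq2 1.26.0 and Bowtie2 2.2.3, with the genome build mm10. The sources used here give neither the annotation release nor the strand setting. The authors deposited raw counts per gene, identical in the 24 single files and the matrix, and a matrix of variance-stabilized values on a log2 scale, which served 1 alternative. Symbols, positions and exon lengths came from GENCODE M21.

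Counts were fitted in R 4.3.3 with edgeR 4.0.16: filterByExpr, trimmed mean of M-values, 1 mean per group over all 24 libraries, and robust two-sided quasi-likelihood tests for 5 comparisons, with a prior count of 0.125. Genes were called at a Benjamini-Hochberg adjusted p under 0.05 over all 14533 genes, and ± after a log2 fold change is its SE. A positive strain value means higher in 129S1/SvImJ. Every pair of libraries within a group differed by more than counting noise (61 pairs, chi-square over degrees of freedom 5.30 to 72.4). Each library comes from 1 mouse, per the labels. Before use, the fit was checked on simulated counts with known changes. These were larger than every called change of the 37 except those of Csad, so the recovery of smaller changes was not checked. All 37 genes may be named; values of every group are given for those called in at least 1 comparison and for Cps1, and of the other pathway genes the 4 with the smallest p per direction and comparison are named. The genes and lists were chosen with earlier results of these data known. Alternatives were DESeq2 1.42.0, limma 3.58.1 on the variance-stabilized values, other scaling and filters, omitted libraries, a replicate block, means per identifier number and Rn7sk levels.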

Additional observations from a re-analysis of the deposited data

Results flagged for a closer look

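Of 104 groups (26 genes named with their values, 4 groups each), 3 held a library far from the others by Dixon's criterion, and chance alone gives about 1 in 20. Ivd was 187.8 CPM in replicate 6 of 129S1/SvImJ on high-fat diet, with the next at 166 CPM. Ivd was also 207.7 CPM in replicate 1 of C57BL/6J on chow, with the next at 187.7 CPM. Acadsb was 270.0 CPM in replicate 6 of 129S1/SvImJ on high-fat diet, with the next at 240.1 CPM.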

How the results depend on the processing

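All 51 calls kept their sign under every alternative run, and 35 of them passed the threshold in all 24 fits that left out 1 library. In all the other alternatives together 3 passed throughout, Bckdhb between strains on both diets and Kmo between strains on chow. Of the 51 calls, 43 passed with no filter on low counts, 44 with only the groups compared, 45 with the replicate block and 48 with 1 mean for each identifier number, where Dbt (diet in 129S1/SvImJ), Ivd and Bckdha (strain on high-fat diet) were lost. The last of these fits leaves the spread between numbers out of the error. The numbers of genes called in the 24 fits without 1 library were 7 to 16 for diet in 129S1/SvImJ (7 without 129S1/SvImJ chow replicate 1), 6 to 12 for diet in C57BL/6J, 16 to 23 for strain on high-fat diet, 8 to 12 for strain on chow and 0 to 2 for the interaction (2 without 129S1/SvImJ chow replicate 4 or C57BL/6J high-fat-diet replicate 4). Of all genes tested, those fits called 6.33% to 11.6%, 11.2% to 17.1%, 33.4% to 38.3%, 21.3% to 26.4% and 0.0338% to 1.17% in the same 5 comparisons. For the interaction, 2 were called with no filter on low counts, with Rn7sk as a covariate and among the libraries below the widest gap in Rn7sk, and 3 by DESeq2. In that order, these fits called 0.143%, 0.833%, 1.3% and 0.959% of all genes tested. At the low Rn7sk level of the even split, chosen after seeing the data, 3, 1 and 1 were called for diet in 129S1/SvImJ, diet in C57BL/6J and strain on high-fat diet, with 6 for strain on chow. At the high level 0, 3 and 3 were called for diet in 129S1/SvImJ, diet in C57BL/6J and strain on chow, with 14 for strain on high-fat diet. Both levels have fewer libraries per group. Replicate numbers did not pair the samples (correlation of deviations -0.22 to 0.314 for the same number, 33 pairs, and -0.277 to 0.33 for others), and with the replicate block 12, 7, 17, 10 and 0 genes were called in the 5 comparisons. The block fit called 10.3%, 12%, 35.7%, 24.5% and 0.117% of all genes tested. The interaction could not be fitted on only the groups compared, nor any comparison above the widest gap in Rn7sk. No fit gave a shift of the median of all genes above 0.1. Depth limits Sdsl most, with 35 to 138 counts per library.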
